A study of Mus musculus with 12 samples.

Results

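The untreated mouse tumor organoids of the series were compared between tissue culture plastic and BME, a reduced growth factor basement membrane extract in which organoids grow in 3D. All 6 untreated libraries, of 12 in the series, were taken by their labels: lines 682, 700 and 889 in BME and lines 560, 700 and 889 on plastic. The organoids came from small intestinal tumors of Smad4KO; BRAFV600E/+ mice, in which Villin-CreERT2 acts in the intestinal epithelium, so every group was labelled as lacking Smad4 and carried 1 activated BRAF allele. Every library is also labelled as carrying pINDUCER-SMAD4, a lentiviral construct that makes SMAD4 in the presence of doxycycline (dox), and the untreated organoids received vehicle for 48 h in 1x CCM, the crypt culture medium. Of the remaining 6 libraries, labelled 4 µg/mL dox, the 4 of lines 700 and 889 were used to set the same difference in environment beside that of the untreated lines. The BME dox library of line 682 is labelled mock and held Smad4 at 18.7 TPM, against 14.3 TPM without dox, so whether line 682 held the inducible construct is not shown by these values. The comparison asks which genes differ when tumor organoids grow without the surrounding matrix.

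The intestinal epithelium is renewed from LGR5-positive stem cells at the crypt base, whose daughters become absorptive enterocytes or secretory goblet, Paneth, enteroendocrine and tuft cells. Basement membrane proteins, mainly laminins and collagen IV, are read by integrins on the basal side of the cells. In injured gut and in organoids plated on stiff surfaces, YAP is a known mediator of a fetal-like program marked by Ly6a, annexins and Sprr1a, while crypt genes are turned down. Squamous epithelia such as epidermis instead make keratin 14 and the cornified envelope, a cross-linked protein shell built from involucrin and small proline-rich and late cornified envelope proteins.

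Levels are given as TPM, transcripts per 1000000: FPKM values rescaled to the same sum in each library, and so already divided by transcript length. Values are listed in the order of lines 682, 700 and 889 for BME, and 560, 700 and 889 for plastic. The plastic and BME values were deposited as 2 separately normalized tables, and environment, table and handling of the cultures cannot be told apart. A change is the mean log2(TPM + 1) on plastic minus that in BME with n = 3 lines each, tested with limma. Calls required a change of more than 1 in either direction together with an adjusted p below 0.05. Lines are the replicates, so the spread includes differences between tumors.

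Reads rebuilt from the deposited values numbered 15394557 to 16308530 per BME library and 20546617 to 20979975 per plastic library, and 16255 to 16805 genes were above 0. The 20 highest genes took 12.1% to 13.8% of the total in BME and 16.2% to 18.2% on plastic. S100a11, a calcium-binding S100 protein, was the highest gene in each plastic library and the elongation factor Eef1a1 in each BME library. Smad4 was at 14.3, 10.5 and 10.9 TPM in BME and 2.18, 5.22 and 8.92 TPM on plastic. The groups did not overlap, but the change of -1.14 had an adjusted p of 0.128, and the exact permutation test gave p = 0.1 (two-sided), the smallest that 3 against 3 allows. Gene-level values do not separate the deleted gene's residual transcript from leakage of the construct. Braf, the gene with the activating mutation, was at 6.83 to 7.88 TPM in BME and at 2.93, 7.02 and 7.42 TPM on plastic. The 7 epithelial markers summed to 6276 to 8482 TPM in BME and 20095 to 24433 TPM on plastic, with Krt8, Krt18 and Krt19 above 1000 TPM in every library. These 3 keratins made up most of the sum. Epcam, a surface marker of epithelium, was at 484, 514 and 731 TPM in BME and lower, at 378, 209 and 277 TPM, on plastic, and was not called. Markers of stroma were near the floor: 7 fibroblast genes summed to at most 5.18 TPM, 4 immune genes to at most 2.26 TPM, 3 smooth muscle genes to at most 2.34 TPM and 3 endothelial genes to at most 0.126 TPM. Of the wider list of such genes 2 passed the filter and 0 were called, and one of them, Cd14, was at 35.6 to 64.3 TPM in every library.

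The promoters of 5 genes that changed between environments are shown first, because they hold the letters of an ISRE or AP-1 element near their start. An ISRE core (GAAA, any 2 bases, then GAAA) is part of the element read by interferon-activated STAT and IRF proteins, and TGANTCA is the element of the AP-1 family of FOS and JUN proteins. Capitals mark each match on either strand, and the sequences are from RefSeq on GRCm38.p6, written 5′ to 3′ on the strand of the gene.
Ifit1 (interferon-induced, lower on plastic), chr19:34640735-34640863, + strand: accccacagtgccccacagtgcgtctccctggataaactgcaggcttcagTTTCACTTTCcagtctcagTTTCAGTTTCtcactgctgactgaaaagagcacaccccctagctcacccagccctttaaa
Ifit3 (interferon-induced, lower on plastic), chr19:34583323-34583466, + strand: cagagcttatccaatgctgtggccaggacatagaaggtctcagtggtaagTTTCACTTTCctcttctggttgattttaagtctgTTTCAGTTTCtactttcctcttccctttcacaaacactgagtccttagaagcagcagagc
Sprr1a (cornified envelope, higher on plastic), chr3:92485941-92486077, - strand: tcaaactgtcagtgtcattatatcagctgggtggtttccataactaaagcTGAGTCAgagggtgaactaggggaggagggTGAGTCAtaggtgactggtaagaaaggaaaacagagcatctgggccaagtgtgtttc
Serpinb2 (plasminogen activator inhibitor, higher on plastic), chr1:107511279-107511385, + strand: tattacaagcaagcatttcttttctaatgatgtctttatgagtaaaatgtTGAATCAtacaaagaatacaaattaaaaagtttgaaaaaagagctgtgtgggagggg
Procr (endothelial protein C receptor, higher on plastic), chr2:155751013-155751119, + strand: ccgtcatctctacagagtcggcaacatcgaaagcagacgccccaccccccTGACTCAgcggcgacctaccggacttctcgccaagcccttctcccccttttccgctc

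Ifit1, Ifit3 and Sprr1a each held a pair of matches, and Serpinb2 and Procr held 1 each. The ISRE core was sought in Ifi27l2a, Rtp4, Ifit1 and Ifit3, and the AP-1 letters in the 12 largest rises. These 5 are the genes with a match before the start. Ifi27l2a, Rtp4 and the other rises had no such match or no promoter sequence. Of the 32851 RefSeq promoter windows from 250 bases before to 50 after a start, 3.44% held the ISRE core and 7.81% the AP-1 letters. Only 78.1% of the 12505 genes tested had a window, so shares over called genes are not given, and a match describes the letters and not binding.

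Between plastic and BME, 1147 of 12505 genes were called (9.17%), of which 315 were higher on plastic (2.52%) and 832 lower (6.65%). The median change of all genes tested was -0.32, and the split between higher and lower moved with the scaling. With median-of-ratios scaling, which sets the median gene near no change, 592 genes (4.73%) were called higher and 393 (3.14%) lower, and quantile normalization gave 538 (4.3%) and 311 (2.49%). All 315 higher genes were also called higher with median-of-ratios scaling, as were 393 of the 832 lower genes in their own direction, and 0 genes were called opposite ways. A fit that blocked by line called 357 genes higher (2.85%) and 653 lower (5.22%), of which 198 and 408 were shared with the calls above. In that fit the change comes from lines 700 and 889 alone. Little is left there to estimate the spread of a single gene, so its calls lean on the spread that limma shares across genes. The count of 1147 rested on each library: it was 57 without BME line 682, 57 without BME line 700, 523 without BME line 889, 130 without plastic line 700, 20 without plastic line 889 and 1976 without plastic line 560 (721 higher, 5.77%, and 1255 lower, 10%).

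Genes of squamous and cornified epithelium were among the 12 largest rises. Lce1h, a late cornified envelope protein (NCBIM37 chromosome 3, 92567137 to 92568987), was at 0, 0 and 2.33 TPM in BME and at 346, 175 and 1022 TPM on plastic. It was close to silent in BME and abundant in each plastic library, a change of 8.05 (SE 0.74, adjusted p = 0.0114). Sprr1a, a small proline-rich envelope precursor on chromosome 3 from 92287877 to 92289816, was at 73.9, 77.0 and 321 TPM in BME and rose to 9266, 7186 and 9758 TPM (change 6.13, SE 0.56, adjusted p = 0.0114). S100a7a, a member of the psoriasin group, was at 1.27, 4.42 and 3.28 TPM in BME and 214, 324 and 376 TPM on plastic (change 6.31, adjusted p = 0.00927). Crct1, which lies in the same chromosome 3 region from 92818127 to 92819609, rose from 1.89, 11.6 and 7.23 TPM to 149, 211 and 332 TPM (change 5.04). These 4 genes are neighbors in or next to the epidermal differentiation complex, the cluster that holds most cornified envelope genes. Krt14, the keratin of basal squamous cells, was at 0.957, 3.24 and 1.32 TPM in BME and 62.9, 43.9 and 261 TPM on plastic (change 5.08, adjusted p = 0.0172). Blocked by line, its change was 5.11 and it was not called.

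Of 25 keratin and cornified envelope genes tested, 8 were called higher and 2 lower (2.52% and 6.65% of all genes), and the list's median change was 1.63 against -0.32 for all genes. Of 5 small proline-rich (Sprr) genes tested by symbol, Sprr1a alone was called, and the family's median change was 0.24. The keratins of simple gut epithelium rose as well. Krt19 was at 1247, 1589 and 2366 TPM in BME and 8091, 7324 and 7422 TPM on plastic (change 2.18, adjusted p = 0.0137). Krt8, Krt18 and Krt7 rose by 1.77, 1.63 and 2.52, and Krt80 by 3.53. Ivl, the involucrin of the envelope, rose from at most 1.35 TPM in BME to 18.7, 11.6 and 25.3 TPM (change 3.24). Krt20, the keratin of differentiated villus cells, went the other way, from 15.2, 8.13 and 26.9 TPM to 1.37, 3.89 and 1.11 TPM (change -2.47). Tgm2, a transglutaminase, was the other lower member, at -1.77, and was not called with median-of-ratios scaling. Blocking by line left Krt7, Krt18 and Krt20 uncalled, at 2.39, 1.74 and -2.31.

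**Figure D1:**
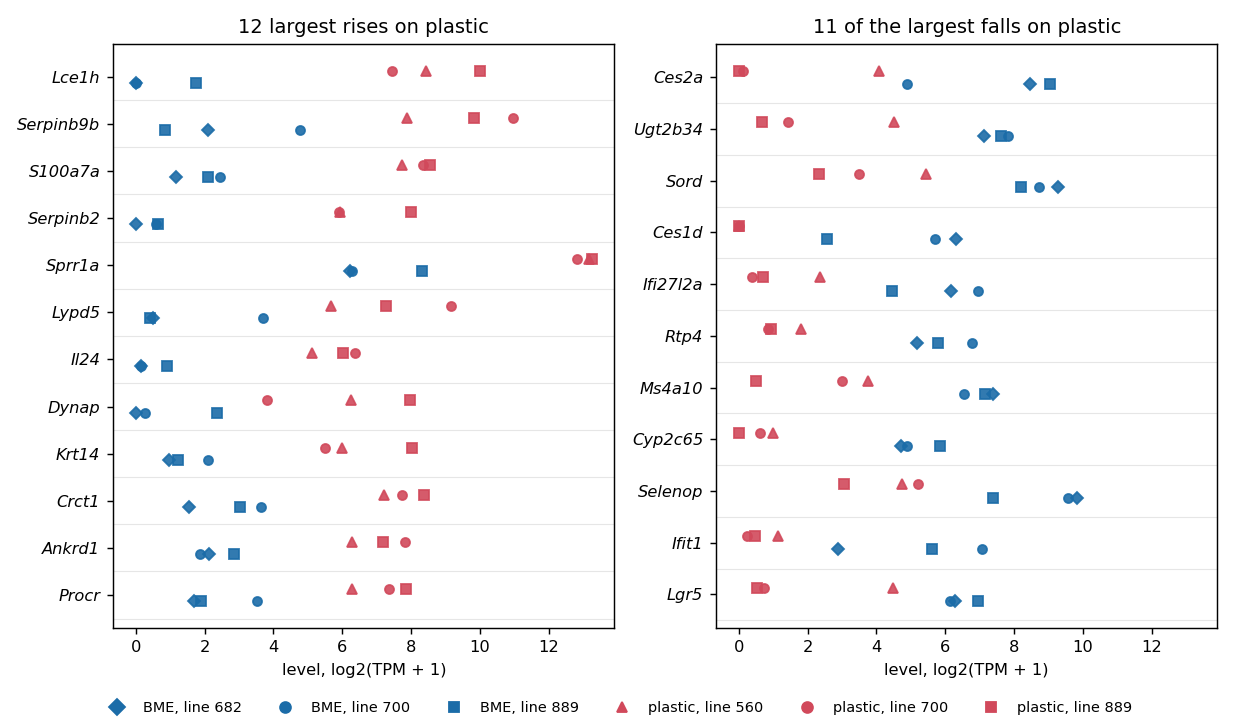
Level of the 12 largest rises and 11 of the largest falls in each of the 6 untreated libraries, as log2(TPM + 1) on the horizontal axis; blue marks BME, red marks plastic and the shape marks the line. For all genes shown the plastic and BME points do not overlap, as the rule for naming them required, and plastic line 560 (triangles) is the plastic library nearest to BME for Lgr5, at 21.3 TPM against 0.654 and 0.432 TPM in lines 700 and 889.

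Serpins, a cytokine and surface proteins were also among the 12 largest rises. Serpinb9b, an intracellular clade B serpin, was at 3.32, 26.2 and 0.816 TPM in BME and 236, 2004 and 908 TPM on plastic (change 6.98, SE 1.13, adjusted p = 0.0216). Serpinb2, the plasminogen activator inhibitor whose promoter is shown above, was at 0, 0.515 and 0.561 TPM in BME and 60.8, 59.5 and 255 TPM on plastic (change 6.21, adjusted p = 0.0115). Il24, a cytokine of the IL-10 family, was at 0.109, 0.110 and 0.872 TPM in BME and 33.7, 81.8 and 63.9 TPM on plastic (change 5.43, adjusted p = 0.00927). Every plastic library held Il24 above every BME library, as the rule for naming it required. Procr rose from 2.23, 10.5 and 2.70 TPM to 76.6, 165 and 228 TPM (change 4.80), and Lypd5, a small GPI-anchored Ly6-domain protein, from 0.425, 12.01 and 0.341 TPM to 49.9, 571 and 153 TPM (change 5.82). Dynap rose from 0, 0.197 and 4.09 TPM to 75.0, 13.0 and 252 TPM (change 5.14, adjusted p = 0.0368).

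Among 27 chemokine and cytokine genes tested, 3 were called higher and 2 lower, set against 2.52% and 6.65% of all genes. Csf2, which encodes the growth factor GM-CSF, was at 0.954, 0.364 and 1.56 TPM in BME and 30.3, 26.5 and 89.9 TPM on plastic (change 4.50, adjusted p = 0.0129). Il1a, the alarmin IL-1 alpha, rose by 3.36 and the chemokine Cxcl16 by 1.51. Cxcl10, an interferon-induced chemokine, fell from 5.19, 10.8 and 5.97 TPM to 2.02, 0.271 and 0.274 TPM (change -2.23), and Nfkbia, the inhibitor of NF-kB, fell by 1.20. Neither of these 2 falls was called with median-of-ratios scaling.

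Fetal-like and regenerative genes included many that were higher on plastic. Of 34 tested, 13 were called higher and 1 lower (2.52% and 6.65% of all genes), with a median change of 1.32 against -0.32 for all genes. S100a11 went from 3503, 4233 and 4549 TPM in BME to 24204, 30052 and 24665 TPM on plastic, a change of 2.68 (adjusted p = 0.00927), and S100a6 rose by 2.50. Ly6a, the Sca-1 antigen of regenerating gut, was at 607, 1136 and 1846 TPM in BME and 4505, 2841 and 3977 TPM on plastic (change 1.77, adjusted p = 0.0437). The annexins Anxa1, Anxa2, Anxa5 and Anxa8 rose by 1.68, 1.61, 2.02 and 1.58. Plaur, the urokinase receptor, was at 75.8, 81.4 and 50.02 TPM in BME and 296, 666 and 619 TPM on plastic (change 2.86, adjusted p = 0.0163). Msln and Tnfrsf12a rose by 1.99 and 1.84. Blocked by line, Anxa1, Anxa2, Msln and Tnfrsf12a were not called, at 1.60, 1.39, 2.09 and 1.79. The 1 lower member was Vsig1, an adhesion protein of gastric epithelium, at 53.7, 83.1 and 35.8 TPM in BME and 12.6, 5.85 and 0.779 TPM on plastic (change -3.33), and it was not called with median-of-ratios scaling.

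YAP target genes had a median change of 1.481 over 21 tested, of which 4 were called higher and 0 lower, against 2.52% of all genes higher. The number higher was 9 with median-of-ratios scaling, against 4.73% of all genes, and 7 with quantile normalization, against 4.3%. Ankrd1, a nuclear ankyrin-repeat protein and classical YAP target, was at 3.41, 2.61 and 6.18 TPM in BME and 77.5, 225 and 145 TPM on plastic (change 4.82, SE 0.44, adjusted p = 0.0114). Amotl2, a YAP-induced angiomotin that in turn restrains YAP, rose from 16.9, 21.6 and 12.7 TPM to 38.3, 167 and 243 TPM (change 2.73, adjusted p = 0.0472). Line 560 gave the lowest plastic value of both. The other called members were Gadd45b, at 1.83, and Fosl1. In the fit blocked by line 7 of the 21 were called higher, against 2.85% of all genes, and without plastic line 560 the number was 14, against 5.77%.

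Among 37 immediate early and MAPK feedback genes, 5 were called higher and 3 lower, set against 2.52% and 6.65% of all genes. Fosl1, the AP-1 subunit FRA1, was at 1.94, 18.5 and 9.17 TPM in BME and 79.3, 201 and 220 TPM on plastic (change 4.20, adjusted p = 0.0245). Fos itself fell, from 357, 290 and 115 TPM to 20.8, 65.5 and 33.6 TPM (change -2.64, adjusted p = 0.0342). Egr1, a zinc-finger factor induced by growth signals, was at 350, 178 and 48.9 TPM in BME and 10.8, 14.0 and 13.2 TPM on plastic (change -3.43). Jun fell by 1.44 and Junb rose by 1.02, so AP-1 members changed in both directions. The MAPK phosphatases Dusp1 and Dusp10 rose by 2.30 and 1.82, and Ier3 by 1.60. Blocked by line, Egr1, Dusp1, Dusp10, Junb and Jun were at -2.70, 2.69, 1.98, 1.06 and -1.21 and none of them was called, and the fall of Jun was not called with median-of-ratios scaling.

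**Figure D2:**
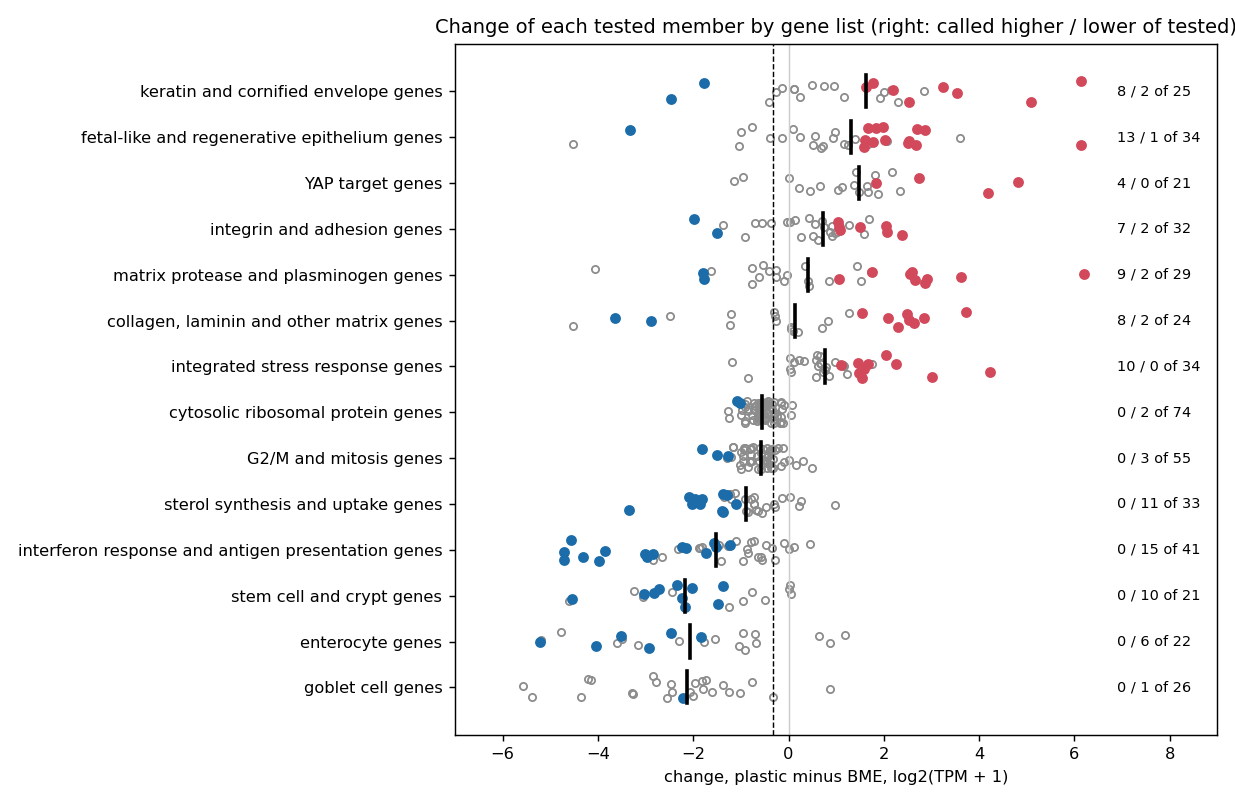
Change of each tested member of 14 gene lists, plastic minus BME on the log2(TPM + 1) scale; filled points are called genes (red higher, blue lower), open points are not called, the black bar is the list median and the dashed line the median of all genes tested, -0.32. Numbers at the right give called higher / called lower of tested, from 13 / 1 of 34 for fetal-like genes to 0 / 15 of 41 for interferon and antigen presentation genes.

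Of 24 collagen, laminin and other matrix genes tested, 8 were called higher and 2 lower, with a median change of 0.14. Of all genes 2.52% were called higher and 6.65% lower, and the list's share lower was near the latter. Col4a1, the main chain of basement membrane collagen, was at 43.2, 63.6 and 44.7 TPM in BME and 162, 317 and 475 TPM on plastic (change 2.52, adjusted p = 0.0208), and its partner Col4a2 rose by 2.49. Lama3 and Lamb3, laminin chains of epithelial anchoring, rose by 2.30 and 1.53. Fn1, fibronectin, was at 7.13, 4.28 and 13.5 TPM in BME and 62.1, 51.2 and 435 TPM on plastic (change 3.72, adjusted p = 0.0399). Ecm1 rose by 2.64, and Loxl4, a collagen cross-linking oxidase, by 2.85. The 2 lower members were Fbln1 and Tgfbi. Tgfbi, a secreted integrin ligand induced by TGF-beta, fell from 13.1, 7.91 and 3.94 TPM to 0.542, 0 and 0 TPM (change -2.88, adjusted p = 0.0194). Fbln1 changed by -3.64 and was not called with median-of-ratios scaling, and Loxl4 changed by 3.04 in the fit blocked by line and was not called there.

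The receptors and adaptors that hold cells to matrix showed 7 higher and 2 lower of 32 tested, against 2.52% and 6.65% of all genes, so that the share lower was near that of all genes. Itga3, which pairs with beta-1 integrin to bind laminin, was at 73.5, 116 and 90.8 TPM in BME and 349, 545 and 578 TPM on plastic (change 2.37, SE 0.27, adjusted p = 0.0130). Its partner tetraspanin Cd151 rose by 1.04. Proteins that couple integrins to actin rose too, namely Actn1 by 2.07, Flna by 2.05, Tln1 by 1.504 and Actn4 by 1.05, as did the hemidesmosome linker Plec by 1.07. Itga7, another laminin receptor, fell from 5.28, 2.25 and 3.62 TPM to 0.254, 0.0879 and 0.111 TPM (change -1.99), and Itga1, a collagen receptor, fell by 1.502. In the fit blocked by line 12 of the 32 were called higher and 0 lower, and Itga7, Itga1 and Plec were not called, at -1.82, -1.52 and 1.12. Of 15 epithelial-mesenchymal transition genes, 2 were called higher, Fn1 and S100a4, and 0 lower (1 of 15 lower with the line as a block), against the same 2.52% and 6.65%.

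Several members of the plasminogen system were higher on plastic. Of 29 matrix protease and plasminogen genes tested, 9 were called higher, against 2.52% of all genes, and 2 lower, a share near the 6.65% of all genes. Plau, the urokinase protease, was at 3.01, 4.64 and 23.3 TPM in BME and 84.2, 65.2 and 179 TPM on plastic (change 3.62, adjusted p = 0.0311). Plat, the tissue-type activator, rose by 2.66, next to the receptor Plaur and the inhibitor Serpinb2 given above. Timp1 and Timp2, inhibitors of metalloproteases, rose by 2.90 and 2.55, and the membrane metalloproteases Mmp14 and Mmp24 by 1.06 and 2.60, and the surface protease Adam8 by 1.74. Proteases and their inhibitors thus rose side by side. Mmp28 and the serine protease Tmprss4 were the 2 lower members, at -1.79 and -1.78, and neither was called with median-of-ratios scaling or quantile normalization. Blocking by line left Timp1, Timp2, Mmp14 and Mmp28 uncalled, at 2.77, 3.05, 1.17 and -1.80.

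The integrated stress response is the ATF4 program that answers amino acid shortage and related stresses. Of its 34 genes tested, 10 were called higher and 0 lower (2.52% and 6.65% of all genes), with a median change of 0.77, and 20 had all 3 plastic values above all 3 BME values, against 8.74% of all genes. Chac1, a glutathione-degrading ATF4 target, was at 0.871, 2.51 and 10.1 TPM in BME and 70.0, 69.0 and 96.9 TPM on plastic (change 4.23, SE 0.62, adjusted p = 0.0184). Atf5, a sister factor of ATF4, was at 11.7, 7.63 and 13.0 TPM in BME and 99.4, 71.2 and 111 TPM on plastic (change 3.02, adjusted p = 0.0114). Psph and Phgdh, enzymes of serine synthesis, rose by 2.26 and 1.67, and Mthfd2 of mitochondrial folate metabolism by 2.05. Asns, Trib3, Cars, Aars and Slc7a5 rose by 1.45, 1.55, 1.47, 1.59 and 1.09. In the unfolded protein response list 1 of 27 was called, Xbp1, a factor of the secretory endoplasmic reticulum, which fell from 359, 336 and 293 TPM to 136, 92.7 and 91.9 TPM (change -1.63).

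Enzymes of the mature gut lining were among the largest falls. Ces2a, an intestinal carboxylesterase (NCBIM37 chromosome 8, 107257903 to 107265530), was at 352, 28.5 and 532 TPM in BME and 16.0, 0.0951 and 0 TPM on plastic (change -6.06, SE 1.44, adjusted p = 0.0457). Ces1d, a related esterase, was at 78.9, 51.3 and 4.91 TPM in BME and was listed at 0 in all 3 plastic libraries. Ugt2b34, which conjugates drugs and steroids to glucuronic acid, fell from 139, 227 and 197 TPM to 21.6, 1.68 and 0.595 TPM (change -5.33, adjusted p = 0.0245). Ugt2b34 was lower in each plastic line, line 560 included, as the rule for naming it required. Sord, Cyp2c65, Ms4a10 and Selenop were also called lower, with changes of -4.997, -4.61, -4.62 and -4.597. Ces2a was not called with median-of-ratios scaling, and in the fit blocked by line Ces2a, Ces1d and Ms4a10 were not called. There Ces2a changed by -6.90 and Ms4a10 by -5.10.

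Of 22 enterocyte genes tested, 6 were called lower and 0 higher, against 6.65% of all genes lower. With median-of-ratios scaling 5 of the 6 were called lower and 1 other member higher, and quantile normalization called 2 lower and 1 higher, against 3.14% and 2.49% of all genes lower. Slc5a1, the sodium-glucose transporter of the brush border, was at 13.3, 4.49 and 32.0 TPM in BME and 0.680, 0.0451 and 0 TPM on plastic (change -3.51, adjusted p = 0.0274). Mep1a, a brush border protease, fell by 2.93, and Apoa1, an apolipoprotein of chylomicrons, by 1.83. Myo1a, the brush border myosin, changed by -4.03 and was the member not called with median-of-ratios scaling. The list's median change was -2.07. Blocking by line left 2 of the 22 called lower, and Slc5a1, Mep1a, Myo1a, Krt20 and Apoa1 were not among them, at -3.72, -3.41, -4.18, -2.31 and -2.10.

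The nuclear receptors that drive enterocyte genes were lower as well. Hnf4a was at 152, 168 and 190 TPM in BME and 47.7, 62.2 and 16.7 TPM on plastic (change -2.16, adjusted p = 0.0363). Its paralog Hnf4g was at 12.003, 6.12 and 13.2 TPM in BME and 2.17, 1.482 and 1.49 TPM on plastic (change -2.02, adjusted p = 0.0240). The gut factor Cdx2, a marker of intestinal identity, was at 121, 109 and 171 TPM in BME and 136, 56.4 and 72.1 TPM on plastic, and these ranges overlapped. Over 29 gut regional and gastric genes, 5 were called lower and 0 higher, against 6.65% of all genes lower. With median-of-ratios scaling 1 of them (Hnf4g) was called, a share near the 3.14% of all genes. The others were Vsig1, the mucin Muc4 at -2.46 and Onecut2, a factor of the proximal gut, at -1.40. Blocked by line, Hnf4a, Hnf4g and Onecut2 changed by -2.42, -2.02 and -1.36 and were not called.

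Stem cell and crypt genes were lower on plastic in 10 of 21 tested and higher in 0, against 6.65% of all genes lower, with a median change of -2.18. Lgr5, the R-spondin receptor that marks crypt base stem cells (NCBIM37 chromosome 10, 114887367 to 115024836), was at 77.6, 68.8 and 124 TPM in BME. On plastic it was at 21.3 TPM in line 560 and at 0.654 and 0.432 TPM in lines 700 and 889 (change -4.55, SE 1.02, adjusted p = 0.0401). Prom1, a membrane protein of progenitors, fell from 445, 583 and 419 TPM to 92.3, 114 and 107 TPM (change -2.18, adjusted p = 0.0114). Lrig1, a brake on EGF receptors found in crypt stem cells, fell from 166, 158 and 155 TPM to 32.5, 37.7 and 46.4 TPM (change -2.03, adjusted p = 0.0117). For Prom1 and Lrig1 the 3 plastic lines lay close together. Vdr, Tnfrsf19, Slc12a2, Cdca7 and Kcnq1 were also called lower, at -3.04, -2.83, -2.72, -2.33 and -1.484. With median-of-ratios scaling 5 of the 10 were called. The others, Lgr5, Tnfrsf19, Ephb2, Cdca7 and Kcnq1, were at -4.27, -2.55, -1.94, -2.04 and -1.18 there, and blocked by line Vdr and Znrf3 were not called, at -3.26 and -1.10.

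WNT target genes had a median change of -0.79 over 21 tested, with 5 called lower and 0 higher, against 6.65% of all genes lower. Lgr5, Tnfrsf19 and Znrf3 are shared with the crypt list, as is Ephb2, a receptor that positions cells along the crypt, which fell from 37.2, 37.2 and 56.0 TPM to 20.7, 4.92 and 5.27 TPM (change -2.23). Znrf3 and Rnf43, WNT-induced ligases that remove Frizzled receptors, fell by 1.38 and 1.32. With median-of-ratios scaling only Znrf3 of the 21 was called, against 3.14% of all genes lower, and blocked by line Znrf3 and Rnf43 were not called, at -1.10 and -1.31. Wnt7a, a ligand outside the list that was singled out after its values were seen, was at 0.288, 3.62 and 0.253 TPM in BME and 16.6, 100 and 54.1 TPM on plastic (change 4.56, adjusted p = 0.0238).

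Interferon response and antigen presentation genes were called lower in 15 of 41 tested and higher in 0, against 6.65% of all genes lower, with a median change of -1.52. With median-of-ratios scaling 9 of the 15 were called lower. Rtp4, a chaperone strongly induced by interferon, was at 35.4, 108 and 54.3 TPM in BME and 2.53, 0.792 and 0.921 TPM on plastic (change -4.71, SE 0.47, adjusted p = 0.0117). Ifit1, an antiviral RNA-binding protein on NCBIM37 chromosome 19 from 34715361 to 34724499, was at 6.38, 133 and 48.4 TPM in BME and 1.22, 0.172 and 0.382 TPM on plastic (change -4.57, adjusted p = 0.0368). Its neighbor Ifit3 was at 6.11, 106 and 48.4 TPM in BME and 0.432, 0.793 and 0.893 TPM on plastic (change -4.30). These are the genes whose ISRE letters are shown above. BME line 682 was the lowest BME library for both and lay above all plastic libraries, which the naming rule required of Ifit1. Oas2 and Oasl2, of the antiviral oligoadenylate synthetase family, fell by 3.85 and 3.99, and Usp18, which limits interferon signaling, by 2.97. Irf9, the DNA-binding subunit of the ISRE factor, fell from 52.6, 79.4 and 54.8 TPM to 13.2, 12.3 and 13.2 TPM (change -2.16, adjusted p = 0.0120). Tap1, the peptide pump that loads MHC class I, fell by 2.23. Stat2, Irf7, Mx2, Oas1a, Ifi27 and the nonclassical MHC gene H2-T23 were called lower at -1.73, -3.02, -2.83, -1.56, -1.52 and -1.22 but not with median-of-ratios scaling. Ifi27l2a fell by 4.72, and blocked by line Ifi27l2a, Ifi27 and H2-T23 were not called, at -5.17, -1.73 and -1.54.

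Sterol and lipid synthesis genes were called lower in 11 of 33 tested and higher in 0, against 6.65% of all genes lower, and 6 of the 11 were also called with median-of-ratios scaling. Insig1, the sterol sensor that holds SREBP in the endoplasmic reticulum and is itself an SREBP target, fell from 122, 180 and 116 TPM to 30.7, 40.3 and 32.2 TPM (change -1.97, SE 0.24, adjusted p = 0.0146). Hmgcs1 and Sqle of cholesterol synthesis fell by 1.38 and 1.30, and the sterol carrier Stard4 by 1.85. Scd2, which desaturates fatty acids, fell from 475, 800 and 958 TPM to 173, 205 and 153 TPM (change -2.02). Scd1, Lss, Cyp51 and Dhcr7 were called lower but not with median-of-ratios scaling, and 7 of the 33 were called lower in the fit blocked by line, which left out Hmgcs1, Sqle, Lss and Dhcr7, at -1.19, -1.19, -1.65 and -1.30. Lpin1, a phosphatidate phosphatase, was called lower at -1.83.

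Of 34 NRF2 antioxidant genes 6 were called lower, against 6.65% of all genes, and 1 higher, a share near the 2.52% of all genes. Cbr3, a carbonyl reductase, fell from 36.6, 105 and 25.6 TPM to 2.55, 1.96 and 1.03 TPM (change -4.09, adjusted p = 0.0170). The other lower members were the glutathione transferases Gstm3, Gstm1, Gsta2 and Gsta4, at -3.74, -3.64, -2.03 and -2.16, and the epoxide hydrolase Ephx1, at -1.42. These 6 are detoxifying enzymes. Osgin1, an oxidative stress-induced gene, rose from 7.83, 27.3 and 13.9 TPM to 56.2, 158 and 142 TPM (change 2.81). Of the 6 lower members 3 were called with median-of-ratios scaling, and blocked by line Gsta2 and Ephx1 were not called, at -1.72 and -1.23.

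Secretory cell genes set plastic line 560 apart from the other plastic lines. Tff3, a trefoil peptide of goblet cells, was at 1796, 969 and 2249 TPM in BME, and on plastic at 1752 TPM in line 560 but 8.33 and 1.26 TPM in lines 700 and 889. Spink4, a goblet cell protease inhibitor, was at 724, 382 and 3807 TPM in BME and at 3442, 11.2 and 1.98 TPM on plastic. Reg4, a lectin of deep crypt secretory cells, was at 20.1, 17.5 and 428 TPM in BME and at 582, 2.43 and 0.306 TPM on plastic. In each case line 560 lay within or above the BME range and the other plastic lines lay below it. Mmp7, the Paneth cell protease that activates defensins, was at 92.3, 289 and 1205 TPM in BME and at 538, 1.92 and 3.52 TPM on plastic. The adjusted p-values for Tff3, Spink4, Mmp7 and Reg4 were 0.145, 0.272, 0.216 and 0.589, so none was called. The change in the fit blocked by line is the mean of lines 700 and 889 and takes nothing from line 560. There Tff3 and Mmp7 were called lower, at -8.33 and -7.35, and Spink4 and Reg4 were not, at -7.65 and -5.39.

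**Figure D3:**
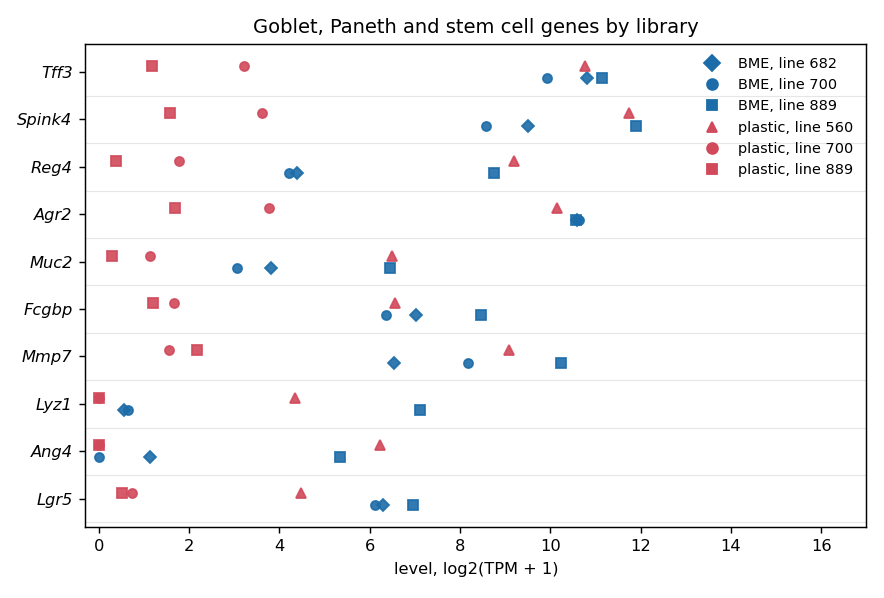
Level of goblet (Tff3, Spink4, Reg4, Agr2, Muc2, Fcgbp), Paneth (Mmp7, Lyz1, Ang4) and stem cell (Lgr5) genes in each untreated library, as log2(TPM + 1); blue marks BME, red marks plastic and the shape marks the line. Plastic line 560 (red triangles) sits among the BME points for most secretory genes, with Tff3 at 1752 TPM, while plastic lines 700 and 889 sit further left, with Tff3 at 8.33 and 1.26 TPM.

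Over the 26 goblet genes tested, line 560 lay below the BME range for 9, within it for 12 and above it for 5. Over all genes tested the shares were 60.1%, 25.1% and 14.9%. Lines 700 and 889 both lay below the BME range for 24 of the 26, against 37.9% of all genes. Agr2, a disulfide isomerase needed for mucin folding, was at 1530, 1589 and 1518 TPM in BME and at 1141, 12.6 and 2.23 TPM on plastic. The 7 goblet markers summed to 3055 to 8491 TPM in BME and to 7163, 39.2 and 8.49 TPM on plastic, and the 4 Paneth markers to 94.0 to 1391 TPM in BME and to 632, 1.92 and 3.52 TPM. Of 26 goblet genes tested 1 was called lower, against 6.65% of all genes. This was Bcas1 at -2.21, which was not called with median-of-ratios scaling. The number of goblet genes called lower was 13 of 26 in the fit blocked by line (5.22% of all genes) and 19 of 26 without plastic line 560 (10% of all genes), and neither count uses the difference of line 560 from BME. In 17 Paneth and antimicrobial genes 1 was called lower, a share near the 6.65% of all genes. This was Habp2 at -3.68, which was also lost with median-of-ratios scaling. With the block 4 of the 17 were called lower (5.22% of all genes). In bulk RNA, fewer cells of a type and less RNA per cell cannot be told apart.

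Tuft and enteroendocrine genes were mostly below the filter. The tuft regulator Pou2f3 was at 11.6, 6.75 and 2.003 TPM in BME and 0.893, 0.181 and 0.109 TPM on plastic (change -2.29, adjusted p = 0.0480). Cd24a changed by -1.13. These 2 of 8 tuft genes tested were called lower, against 6.65% of all genes, and 0 were with median-of-ratios scaling or blocked by line, where Pou2f3 and Cd24a were at -2.08 and -1.21. Of 3 enteroendocrine genes tested 0 were called. Cpe, a prohormone-processing enzyme, was at 25.9, 16.2 and 33.6 TPM in BME and 41.8, 77.3 and 138 TPM on plastic (change 1.62, adjusted p = 0.0708), and was called higher with median-of-ratios scaling and when blocked by line, at 1.92 and 2.10. Neurog3, the endocrine progenitor factor, was at 8.83, 1.52 and 11.6 TPM in BME and 3.89, 0 and 0 TPM on plastic (change -1.9997, adjusted p = 0.155).

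Calls among genes of growth and housekeeping are set against 6.65% of all genes called lower. Of 49 G1/S and DNA replication genes 2 were called lower and 0 higher, and of 55 G2/M and mitosis genes 3 lower and 0 higher, with median changes of -0.46 and -0.58 against -0.32 for all genes. Kif11, the motor that separates spindle poles, fell from 39.8, 32.8 and 37.8 TPM to 10.3, 13.1 and 13.5 TPM (change -1.51, adjusted p = 0.0177). Prim1, Mcm10, Cdc25b and Nusap1 were called lower at -1.40, -1.31, -1.83 and -1.26, and none of them with median-of-ratios scaling. Blocked by line, 7 of the 55 mitotic genes were called lower, and Mcm10 was not called, at -1.31. Of 74 cytosolic ribosomal protein genes 2 were called lower, Rps21 and Rps15a at -1.08 and -1.02, and of 69 oxidative phosphorylation genes 2, Ndufa6 and Sdhd at -1.16 and -1.10. None of these 4 was called with median-of-ratios scaling, and the fit blocked by line gave 6 and 4 lower calls, without Rps21 at -1.25. The median change of the ribosomal list was -0.55, against -0.32 for all genes. In 33 of its 74 genes all plastic values lay below all BME values, against 31.3% of all genes. Of 38 hypoxia and glycolysis genes 5 were called lower, led by Pdk1, the kinase that keeps pyruvate out of mitochondria, at 54.5, 54.4 and 87.6 TPM in BME and 23.2, 9.43 and 9.40 TPM on plastic (change -2.23). Car12, Pfkfb4, Kdm3a and Ak4 were the others and were lost with median-of-ratios scaling, and Car12, Pfkfb4 and Kdm3a also when blocked by line, at -1.79, -1.37 and -1.60.

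Calls among survival genes and TGF-beta and BMP genes went in both directions. Among 29 apoptosis and anoikis genes 2 were called higher and 4 lower, against 2.52% and 6.65% of all genes. Bcl2l11, which encodes BIM, a killer protein of cells that lose matrix contact, was at 43.2, 45.9 and 35.9 TPM in BME and 7.49, 8.49 and 3.49 TPM on plastic (change -2.57, SE 0.33, adjusted p = 0.0170). Bmf, another BH3-only protein tied to detachment, fell from 5.30, 4.96 and 7.49 TPM to 2.32, 0.553 and 0.325 TPM (change -1.85). The survival genes Bcl2 and Birc2 changed by -1.34 and -1.22, and the effector Bak1 rose by 1.44, as did Bcl2l15 by 2.73, although the scales of the deposited tables differed by 0.75 (log2) for Bcl2l15. Bmf, Bcl2 and Birc2 were not called with median-of-ratios scaling, and Bcl2l15, Bcl2 and Birc2 not when blocked by line, at 2.50, -1.29 and -1.17. Of 36 TGF-beta and BMP response genes 1 was called higher and 3 lower, set against 2.52% and 6.65% of all genes, and the balance turned with the scaling, to 3 higher and 2 lower with median-of-ratios scaling and 5 higher and 1 lower with quantile normalization. Pmepa1, a TGF-beta target that damps SMAD signaling, rose from 34.5, 60.3 and 35.0 TPM to 141, 192 and 272 TPM (change 2.19, adjusted p = 0.0184), and with the block it was at 2.29 and not called. Tgfbi, Bmp7 and Acvr2a were the 3 lower members, of which Bmp7, at -1.90, was not called with median-of-ratios scaling and Acvr2a, at -1.62, was not called when blocked by line, at -1.24. In 23 tight junction genes 1 was called in each direction, shares near those of all genes: Cldn4 rose by 1.21 and Cldn8 fell by 1.47, and with the block both were lost, at 1.01 and -1.38.

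Lines 700 and 889, each grown both ways, gave a paired check. In both lines 626 genes were higher on plastic by more than 1 (5.01% of those tested) and 1235 lower (9.88%), which held 281 of the 315 genes called higher and 658 of the 832 called lower. The 2 line differences are part of the test above and are no separate evidence. Sprr1a differed by 6.53 in line 700 and 4.92 in line 889, Serpinb2 by 5.32 and 7.36, and Ankrd1 by 5.97 and 4.35. Lgr5 differed by -5.40 and -6.45, and Rtp4 by -5.93 and -4.85. Among secretory genes Tff3 differed by -6.70 and -9.96 and Spink4 by -4.97 and -10.3.

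**Figure D4:**
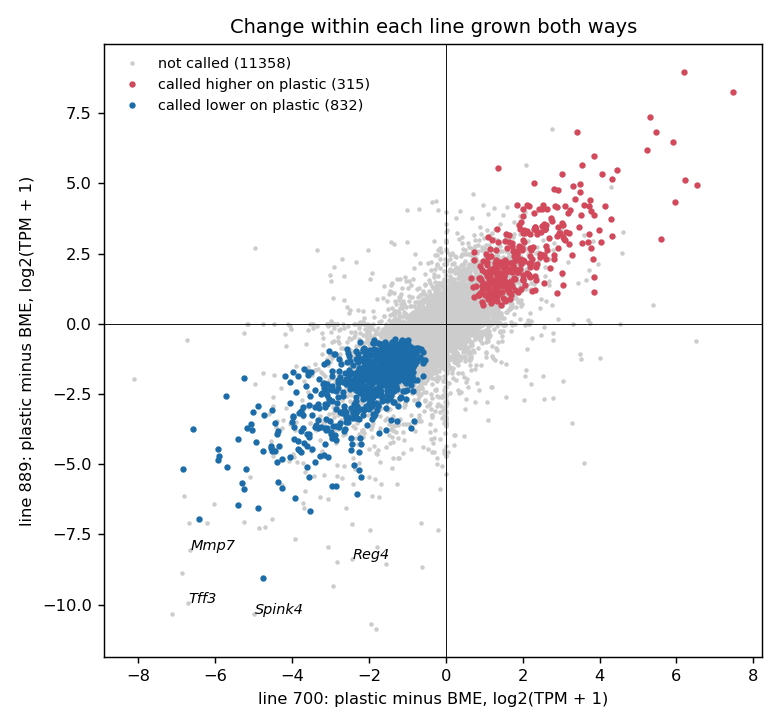
Change of each of the 12505 genes tested in line 700 (horizontal) and line 889 (vertical), plastic minus BME on the log2(TPM + 1) scale; red and blue mark the 315 genes called higher and the 832 called lower, and grey the others. The called genes lie above 0 in both lines or below 0 in both, and Tff3, Spink4, Mmp7 and Reg4 (labelled) lie far below 0 in both lines although they were not called over 3 against 3 libraries.

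Ranks within a library need no scaling between tables. By rank, 2291 genes (18.3%) were higher in all 3 plastic libraries than in all 3 BME libraries and 1957 (15.6%) were lower, where the TPM values gave 1093 (8.74%) and 3909 (31.3%). Lce1h stood at the 96.8th, 92.8th and 98.9th percentile of the genes tested on plastic and at the 0.608th, 0.540th and 9.08th in BME. The largest rises and falls shown separated by rank as they did by level. They had been named for not overlapping by level, so their separation by rank is no separate evidence.

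The dox libraries of lines 700 and 889, in which SMAD4 was induced, held differences in the same direction for most called genes. Relative to the median gene, 309 of the 315 genes called higher (98.1%) were higher on plastic in both dox lines, and 761 of the 832 called lower (91.5%) were lower, where 37.6% of all genes tested were higher in both dox lines and 37.6% were lower in both. These libraries come from the same lines and share the deposited tables, and so any difference between the tables. They are therefore not an independent set. Ankrd1 differed by 5.56 and 3.69 in the dox libraries, and Il24 by 6.57 and 5.59. Sprr1a differed by 1.74 and 2.98 there, below its values in the untreated lines. Of the 41 interferon and antigen presentation genes, 26 had a difference below 0 in both dox lines, here without subtracting the median gene (63.4%, where 54.5% of all genes tested were below 0 in both), and of the 15 called lower 13 did. Rtp4 differed by -5.32 in line 700 and -1.22 in line 889. Some interferon-induced genes, picked after their values were seen, lay near 0 or above it in line 889: Ifit1 differed by -5.98 in line 700 and -0.01 in line 889, Ifit3 by -5.68 and 1.36, and Cxcl10 by -2.94 and 0.97. Egr1 differed by -2.98 and 1.05.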

How the data were processed

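RNA-Seq of organoids was measured in 12 libraries, of which the 6 untreated ones are compared here. Per the study's methods the authors processed reads with kallisto and DESeq2; versions and the transcript annotation are not given in the sources used here, and the processing notes name mm9. The authors deposited FPKM values (fragments per kilobase of transcript, scaled to library size) in 1 table per environment, each normalized on its own 6 libraries. The deposited comparison tables also hold a mean normalized count, a signal averaged over the libraries of a table, which was used only to check scale and rebuild reads, and the authors' fold changes, p-values and adjusted p-values, which were not used.

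Each FPKM column was rescaled to a sum of 1000000 (TPM). The ratio of mean FPKM to mean normalized count was within 0.1 (log2) of its median between the tables for 98.4% of 12477 genes and over 1 for 0%, so the tables were compared after rescaling. Genes with a mean TPM of at least 1 (12505 of 24906) were tested on log2(TPM + 1), which understates the change of low genes, with limma 3.58.1 (trend, two-sided) in R 4.3.3 and Benjamini-Hochberg adjustment. On simulated data 90% of genes changed by 2 (log2) and 94% of those changed by 3 were recovered, with 4 false calls among 12505 genes tested. The simulated libraries had the same fixed spread for every gene and no differences between lines. These figures therefore do not give the recovery or false calls for the lines compared here. Low values (under 10 reads) came out whole within 0.05 reads for 87.6% to 90.1% of cases in the untreated libraries.

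Lines 700 and 889 were in both environments, so the line pairs the samples. The deviations from the group means across genes correlated at 0.487 between both libraries of line 700 and at 0.118 for line 889. Some pairs of different lines exceeded the value of line 889, with 0.295 for plastic line 560 and BME line 889 and 0.130 for plastic line 700 and BME line 682. None exceeded the value of line 700. The pairing therefore rests on the shared line. The blocked change is the mean of the differences in lines 700 and 889. Alternatives were a pseudocount of 0.1, no filter or a mean of at least 5 TPM, other scalings (median-of-ratios, quantile, and without the 20 highest genes), the line as a block, limma-voom 3.58.1 on rebuilt reads, lines 700 and 889 alone, and leaving out each library.

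Genes named are the 12 largest rises and falls called, without overlap between groups and changed by over 1 in both paired lines, up to 4 called members of each of 31 gene lists (the 2 highest where 0 were called), Smad4, Braf and the markers Tff3, Spink4, Mmp7 and Reg4. Further list members given with values, and genes said to be singled out, were chosen after their values were seen. The members, lists and tests were chosen with earlier results of these data known. Gene positions are from GENCODE vM1 on NCBIM37. The deposited symbols of 24 genes read as dates and are not named. Results for some genes are not reported here.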

Additional observations from a re-analysis of the deposited data

Results flagged for a closer look

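The values of Smad4 between environments had opposite signs with and without dox. In the untreated organoids it was lower on plastic than in BME in both lines grown both ways, with plastic minus BME at -0.88 on the log2(TPM + 1) scale in line 700 and at -0.26 in line 889. In the dox libraries, which induce the SMAD4 construct, the differences were 0.07 and 0.77. The median gene differed by -0.18 and -0.21 in the untreated lines and by -0.27 and -0.34 in the dox lines, so untreated line 889 lay close to its median gene. By rank among the genes tested, Smad4 stood at the 33.7th percentile in plastic line 889 and the 31.9th in BME line 889. The difference between these pairs was not tested.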

How the results depend on the processing

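The number of called genes was 1147 and kept within 1.5 times of that for a pseudocount of 0.1 (1089), a mean of at least 5 TPM (937), median-of-ratios scaling (985), quantile normalization (849), rescaling without the 20 highest genes (1060), limma-voom on rebuilt reads (1305) and the replicate block (1010, of which 357 higher and 653 lower). It was 635 with no filter on low values (196 higher and 439 lower of 19220 tested) and 700 in lines 700 and 889 only (254 and 446), where more genes and fewer samples entered the fit, respectively. Leaving out 1 library gave 20 to 1976 calls and moved the counts of 17 to 29 of the 31 gene lists by over 1.5 times, 29 of them without BME line 682, BME line 700, plastic line 700 or plastic line 889. Of the 110 named genes, those on the same side of the threshold numbered 97 with the pseudocount of 0.1, 62 with no filter, 79 with median-of-ratios scaling, 74 with quantile normalization, 78 with the block, 91 with limma-voom, 60 in lines 700 and 889 only, and between 18 (without plastic line 889) and 103 (without plastic line 560) when 1 library was left out. The replicate block changed no call of a named gene other than those given beside the genes. A change of direction occurred for Braf with quantile normalization (0.12) and for Cd14 without BME line 700 (-0.07) and without plastic line 700 (-0.25), within a range of -0.25 to 0.168 when 1 library was left out, and neither gene was called. The cause was not tested. Smad4 changed by -0.89 with median-of-ratios scaling, -1.07 on the deposited FPKM and between -1.52 and -0.70 when 1 library was left out. The following were chosen after seeing the data: genes over 1 in both lines numbered 2340, 1790 and 1699 (pseudocount of 0.1, median-of-ratios, quantile) against 1861, and genes separated by rank 3533 and 6101 (mean of at least 5, no filter) against 4248. In the dox libraries 93.7% and 91.2% of called genes kept their side with median-of-ratios scaling. Of the 1147 called genes 31 had a mean under 10 rebuilt reads, and how many genes were missed for depth was not tested.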

Other observations

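Gene families were counted by symbol after their values had been seen, so the counts describe these libraries only. Many detoxifying enzymes were lower on plastic. Of these, 6 of 10 carboxylesterases (Ces), 5 of 25 cytochrome P450 genes (Cyp), 3 of 7 glucuronosyltransferases (Ugt1 and Ugt2) and 5 of 21 glutathione transferases (Gst) were called lower and 0 higher, against 6.65% of all genes lower. With median-of-ratios scaling the numbers lower were 4, 3, 3 and 2, and 1 cytochrome P450 gene was called higher. Blocked by line, 3 of the 6 carboxylesterase calls, 2 of the 5 cytochrome P450 calls, 3 of the 3 glucuronosyltransferase calls and 4 of the 5 glutathione transferase calls remained, and 1 carboxylesterase and 1 cytochrome P450 gene were called higher. Ces2c, an esterase of the small intestine, was at 65.4, 30.6 and 60.4 TPM in BME and 2.95, 5.28 and 4.99 TPM on plastic (change -3.25, adjusted p = 0.0129). Of 18 aldehyde dehydrogenases (Aldh) 2 were called lower and 0 higher, and 1 in each direction with median-of-ratios scaling. Their median change was -0.42, against -0.32 for all genes. Of 13 apolipoprotein genes 5 were called lower, among them Apol9b, at 7.74, 31.4 and 28.6 TPM in BME and 0.344, 0.383 and 0.373 TPM on plastic. Of 208 solute carriers 32 were called lower and 5 higher, the latter a share near the 2.52% of all genes. With median-of-ratios scaling 3 apolipoproteins and 22 solute carriers were called lower and 8 solute carriers higher, against 3.14% of all genes lower and 4.73% higher.

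Cytoskeletal and calcium-binding families went the other way. Of 13 tubulin genes 7 were called higher and 0 lower. Tubb2b, a beta-tubulin best known from neurons, was at 18.2, 13.1 and 22.0 TPM in BME and 75.5, 222 and 233 TPM on plastic (change 3.10, adjusted p = 0.0184). Of 16 S100 genes 9 were called higher and 0 lower, of 12 annexins 4 higher, of 18 dual-specificity phosphatases 5 higher, and of 9 clade B serpins 4 higher and 1 lower, against 2.52% of all genes higher. Blocked by line, 5 of the 7 tubulin calls, 7 of the 9 S100 calls, 2 of the 4 annexin calls, 2 of the 5 dual-specificity phosphatase calls and all 5 serpin calls remained, as did 3 of the 5 apolipoprotein and 19 of the 37 solute carrier calls.

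The libraries were not ordered by environment alone. Across the genes tested, Pearson's r between log2 levels was 0.950 for plastic lines 700 and 889 and 0.957 for BME lines 682 and 700, while plastic line 560 stood at 0.904 with BME line 889, 0.903 with plastic line 889 and 0.883 with plastic line 700. The same line grown both ways gave 0.884 (line 700) and 0.830 (line 889). Rnaset2b, a ribonuclease gene singled out after its values were seen, was at 37.9 and 19.7 TPM in BME lines 682 and 700 and 26.5 TPM in plastic line 700, and at 1.32, 1.41 and 0.461 TPM in BME line 889, plastic line 889 and plastic line 560.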
